A study of Mus musculus with 18 samples.

Results

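The Schlafen family of the mouse is represented here by 7 genes, Slfn1, Slfn2, Slfn3, Slfn4, Slfn5, Slfn8 and Slfn9, which were taken by name from an RNA-seq table of 20615 genes. All 7 were among the 15789 genes that passed the filter on low counts. The RNA came from bone marrow-derived macrophages (BMDMs), which were grown from bone marrow of 7 to 12 week old female mice with M-CSF from L929 supernatant. The mice were C57BL/6 (B6) or C57BL/6.NOD-Aec1Aec2 (SjSs), a model of Sjögren's syndrome in which the Aec1 and Aec2 chromosome intervals come from the NOD mouse and the rest from B6. Each strain had 3 untreated (control) samples, 3 that received apoptotic cells (AC) and 3 that received CpG, a DNA oligonucleotide sensed by the receptor TLR9, which made 6 groups. ACs were thymocytes killed with dexamethasone and given at 5 per BMDM for 2 h, after which the BMDMs were washed and kept for a further 3 h by the labels and 4 h by the study's methods. CpG was given at 1 µM for 6 h. A figure caption of the study gives the wash and a further 3 h without setting CpG apart. The time from CpG to collection is therefore uncertain. Each strain had as many donor mice as a group has samples, so the treatments of a strain may share mice, but the sources used here do not state whether a sample's number marks its mouse, or which strain gave the thymocytes. The p-values measure the spread between these samples.

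Schlafen genes are found in mammals and are known as genes that interferons switch on. Interferon binds its receptor, and the kinases JAK1 and TYK2 then pass the signal to transcription factors, among them IRF9, that bind a DNA motif called the interferon-stimulated response element (ISRE). The mouse proteins are sorted by length. Slfn1 and Slfn2 are short, Slfn3 and Slfn4 are intermediate, and Slfn5, Slfn8 and Slfn9 are long and carry a helicase-like part that the others lack. Slfn1 was first known for holding back thymocyte growth, Slfn2 is needed for the quiescence of T cells and monocytes, and Slfn4 is known from myeloid cells.

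The 7 genes lay side by side on chromosome 11 of mm10, over 263.8 kb by the deposited coordinates. Slfn5 (chr11:82951349-82962942) was on the plus strand, and Slfn9 (chr11:82979629-82991831) and Slfn8 (chr11:83002158-83020811) followed on the minus strand. Slfn2 (chr11:83065112-83070679), Slfn1 (chr11:83116849-83122671), Slfn4 (chr11:83175186-83190222) and Slfn3 (chr11:83191330-83215155) were on the plus strand. The pseudogene Slfn10-ps (chr11:83028130-83040043) lies between Slfn8 and Slfn2 on the minus strand and is not a member, and its values are given for comparison. The Aec1 and Aec2 intervals lie on chromosomes 3 and 1, apart from this cluster. The coding sequences in GENCODE M21 ran from 1011 bases in Slfn1 and 1134 in Slfn2, through 1920 in Slfn3 and 1806 in Slfn4, to 2652 in Slfn5 and 2730 in both Slfn8 and Slfn9. Slfn8 and Slfn9 were identical at 92.7% of aligned coding bases and Slfn3 and Slfn4 at 91%, while Slfn1 and Slfn2 were identical at 68.6%.

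Reads from near-identical genes can be divided wrongly, so the overlap was measured on the annotated transcripts. Of all 100-base windows, close to the length of a read, 3.38% in Slfn8 and 3.71% in Slfn9 also occurred in another Schlafen transcript. The share was 0.128% in Slfn2 and 0.0493% in Slfn4, and it was 0% in Slfn1, Slfn3 and Slfn5. Of the members, Slfn8 and Slfn9 are the least certain in this respect. They shared 50 windows with each other, but Slfn8 shared 105 and Slfn9 181 with the pseudogene Slfn10-ps, described above. Slfn8 and Slfn9 were also tested as a sum. That sum leaves out Slfn10-ps, so it covers only the windows that the 2 members share with each other.

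The ISRE was searched on both strands as GAAA, any 2 bases and GAAA again, in the 250 bases before each RefSeq start site (GRCm38.p6), where all 7 members were matched, Slfn8 with 2 start sites and the others with 1, which made 8 windows. It was found before the 3 long members and before none of the 4 others. It occurred in 978 of 32851 such upstream windows (2.98%). The 3 matches are shown with 10 bases on either side, 5′ to 3′ on the strand of the gene and with the ISRE in capitals, because they are the only ISRE letters in these 8 windows.
Slfn5 (chr11:82951937-82951966, plus strand): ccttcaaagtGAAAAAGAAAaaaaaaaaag
Slfn8 (chr11:83020839-83020868, minus strand): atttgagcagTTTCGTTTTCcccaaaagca
Slfn9 (chr11:82991856-82991885, minus strand): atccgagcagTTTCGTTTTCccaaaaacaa

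The match began 155 bases before the start site in Slfn5. This RefSeq start, at 82952102, and the match lie inside the gene by the deposited coordinates, which begin at 82951349. In Slfn8 the match began 48 bases before the upstream start of the 2 (136 before the other), and in Slfn9 45 bases before the start. In Slfn8 and Slfn9 it was read on the opposite strand. Over the whole upstream window, with that upstream start in Slfn8, Slfn8 and Slfn9 were identical at 204 of 245 aligned bases (83.3%), whereas no other pair of members exceeded 52.9%. Those 2 windows are printed because the values of both genes with CpG are set side by side below, and again the capitals mark the ISRE.
Slfn8 (chr11:83020811-83021060, minus strand): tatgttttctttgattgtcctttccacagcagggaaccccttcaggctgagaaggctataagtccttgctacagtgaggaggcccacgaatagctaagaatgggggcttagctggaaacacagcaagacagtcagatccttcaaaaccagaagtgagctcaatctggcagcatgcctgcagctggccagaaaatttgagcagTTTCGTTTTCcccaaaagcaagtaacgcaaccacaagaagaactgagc
Slfn9 (chr11:82991831-82992080, minus strand): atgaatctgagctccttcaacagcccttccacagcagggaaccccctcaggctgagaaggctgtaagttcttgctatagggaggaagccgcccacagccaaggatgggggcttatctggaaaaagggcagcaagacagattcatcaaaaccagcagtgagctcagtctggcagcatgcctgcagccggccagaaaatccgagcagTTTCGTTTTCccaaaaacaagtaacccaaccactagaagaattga

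The gamma-activated site, searched as TTCNNNGAA, was in none of the 8 windows and in 7.02% of all. The NF-kB consensus was found before Slfn1, 43 bases from the start, and before Slfn9, 214 bases from the start, and in 7.25% of all windows. These matches describe letters and do not show that a factor binds there, and a missing match says only that the letters are not in this window.

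Totals over genes ran from 30688336 to 57139662 estimated counts, with a median of 47912525, and levels are given as CPM, counts scaled to a common library total by TMM. Macrophage markers summed to between 15594 and 23910 CPM in every sample, and all 9 of them passed the filter. Of 18 T-lineage markers, which thymocytes could bring in, 5 passed the filter. Apart from Cd28, the other 17 summed to 1.27 to 2.08 CPM in the control samples, to 2.56 to 3.74 CPM in AC treated B6 and to 2.87 to 4.19 CPM in AC treated SjSs samples. Rag1 had 0 counts in every control and CpG group, 24 over the 3 samples of AC treated B6 and 3 over those of AC treated SjSs BMDMs. Other T-lineage markers went either way between the 2 AC treated groups. In B6 and SjSs BMDMs with ACs, Themis had 10 and 0 counts and Cd8a 26 and 10, but Lck had 39 and 86 and Lat 72 and 127. Trac had 4 and 7 with ACs, and 17 and 12 with CpG. Summed B cell markers lay between 9.41 and 26.8 CPM, and neutrophil markers, of which 3 of 6 were in the table, between 2.24 and 12.7 CPM. The 4 dendritic cell markers summed to 2.36 to 3.30 CPM in AC treated SjSs samples and to 0.653 to 1.57 CPM in the others, and in AC treated SjSs samples most of the sum was Xcr1 (2.13 ± 0.470 CPM), while Flt3 and Siglech had at most 12 counts in any group. The mast cell and basophil list had 1 of 3 markers in the table, at 0.0446 to 1.37 CPM. The part of these cells in the results was not tested. In bulk RNA, more cells that express a gene and more RNA per cell cannot be told apart.

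Of the 6 groups, AC treated SjSs BMDMs had the highest level of every Schlafen member, and for each member all 3 samples of that group lay above all 15 others, which held for 12.2% of the genes tested. The 7 members together held 492 ± 24.0 CPM in control B6 BMDMs and 483 ± 43.1 CPM in control SjSs BMDMs (mean ± SD, n = 3 here and below). Their sum was 1169 ± 69.6 CPM in AC treated B6 BMDMs and 4651 ± 101 CPM in AC treated SjSs BMDMs. With CpG it was 1482 ± 156 CPM in B6 and 1322 ± 226 CPM in SjSs BMDMs.

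**Figure D1:**
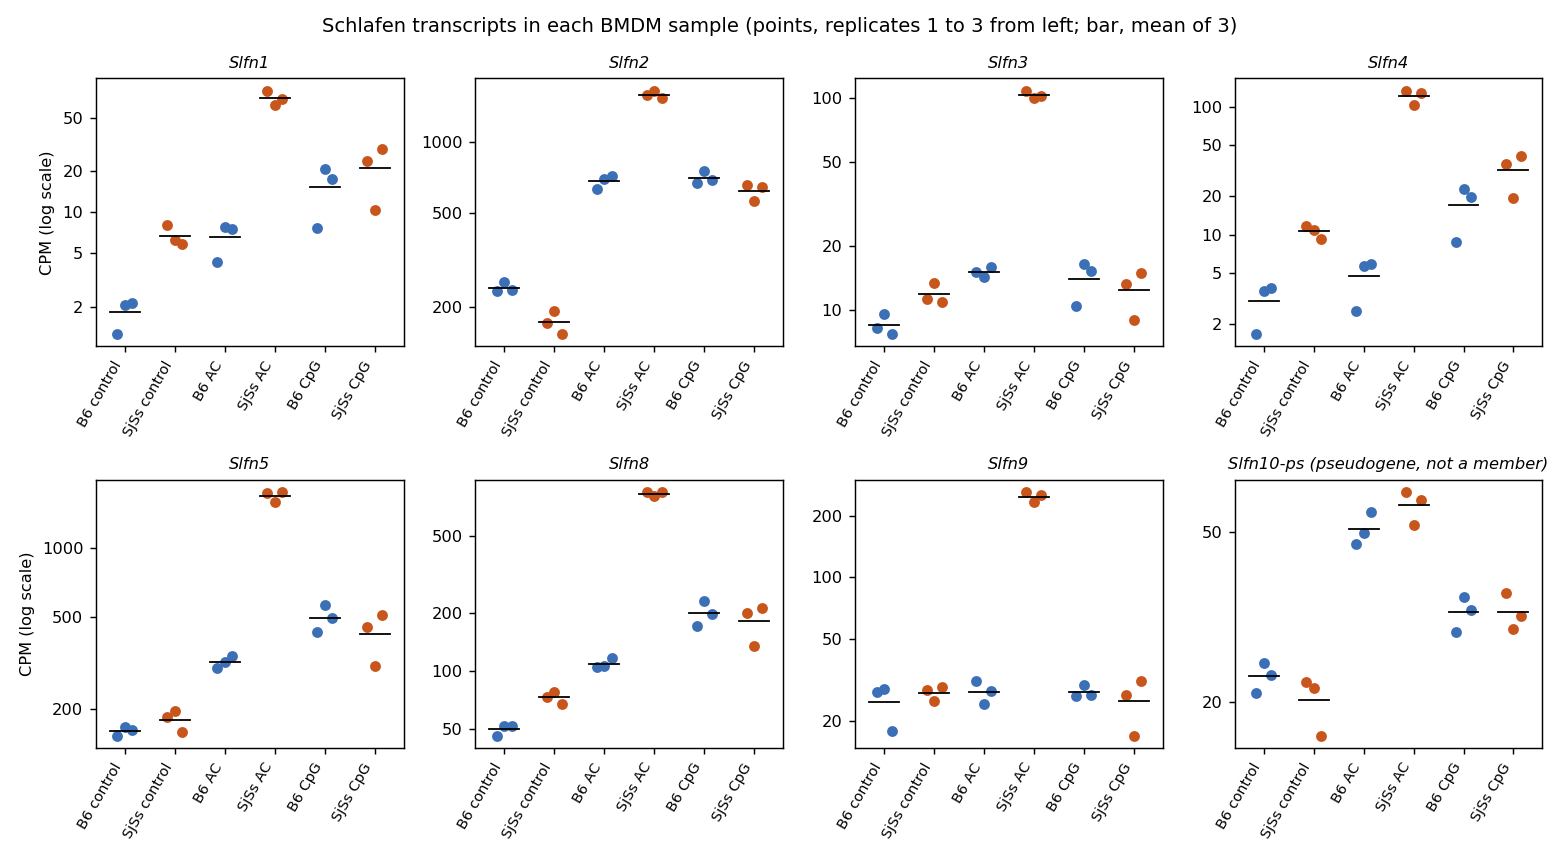
CPM (log axis) of each Schlafen member and of the pseudogene Slfn10-ps in the 18 samples, by group (blue, B6 and orange, SjSs, with black bars for the mean of 3). Every member was highest in the 3 AC treated SjSs samples, whereas Slfn10-ps was at 46.9 to 55.9 CPM in AC treated B6 and 52.0 to 62.1 CPM in AC treated SjSs samples.

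Slfn2, a short member, had the highest level per length. In AC treated SjSs BMDMs it stood at 956 CPM per kb of exon, followed by Slfn5 at 266 and Slfn8 at 205 CPM per kb. Slfn9 at 41.5 ± 2.43, Slfn1 at 37.5 ± 4.61, Slfn4 at 30.7 ± 4.01 and Slfn3 at 30.4 ± 1.23 CPM per kb were lower, and of these neighbours Slfn9 and Slfn1, and Slfn4 and Slfn3, were within their SDs. These lengths are from GENCODE M21, whose models of Slfn4, Slfn5 and Slfn9 differ from the deposited ones, so they are approximate. The shares of the family also shifted. Slfn2 held 49.3% ± 0.269 of the members' summed CPM in B6 BMDMs without treatment and 58.6% ± 0.773 with ACs, but 35.8% ± 0.973 in control and 34.2% ± 1.91 in AC treated SjSs BMDMs. Slfn5 held 27.5% ± 0.250 in AC treated B6 and 36.1% ± 1.28 in AC treated SjSs BMDMs, and Slfn8 held 9.32% ± 0.302 and 17.99% ± 0.141 in these 2 groups.

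**Figure D2:**
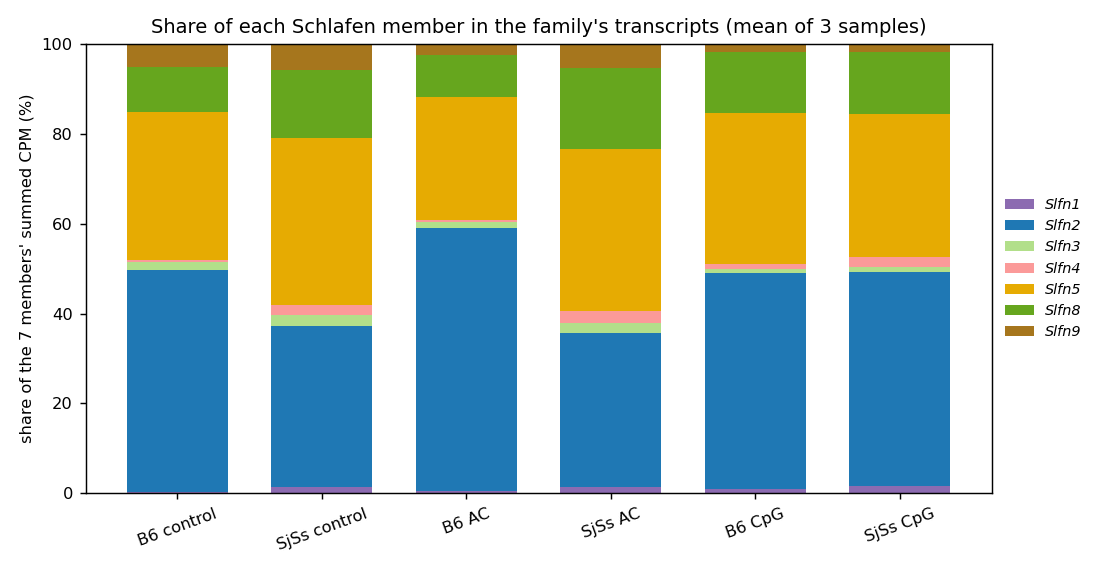
Share (%) of each member in the summed CPM of the 7 members, as the mean of 3 samples, for the 6 groups. Slfn2 and Slfn5 together make up most of the family in every group, and the Slfn2 part is widest in AC treated B6 BMDMs at 58.6%.

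The response to ACs was compared with control BMDMs of the same strain. A call needed both an adjusted p below 0.05 in edgeR's quasi-likelihood test and a log2 fold change whose size exceeded 1.3. These are the thresholds in the study's methods, whereas the caption of its volcano plots gives a fold change of 1.3. Counts at that lower threshold are given at the end. The AC and CpG responses of a strain share their 3 control samples, so their values are set side by side without a test between them. In SjSs BMDMs all 7 members were called higher with ACs, where 7.09% of all genes tested were. Their log2 fold changes lay in a narrow range, from 3.13 in Slfn3 to 3.53 in Slfn4, with a median of 3.22 beside -0.017 over all genes. Among the 15789 genes the members ranked from 228 to 288 by size of increase. In B6 BMDMs 2 of 7 members were called higher, where 2.43% of genes were, and the log2 fold changes were spread from 0.17 in Slfn9 to 1.84 in Slfn1, with a median of 0.99 beside 0.0015. By the adjusted p alone 5 of the 7 rose in B6, where 20% of genes did. All AC treated samples lay above all controls in 5 of 7 members in B6, where 25.7% of genes did so. In SjSs BMDMs this held for all 7 members and 31.5% of genes.

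Slfn1, the short member known from thymocytes, was at 1.26, 2.09 and 2.15 CPM in control B6 samples and at 4.33, 7.76 and 7.49 CPM in AC treated ones. In SjSs BMDMs it was at 8.09, 6.24 and 5.87 CPM without treatment and at 79.0, 62.0 and 68.7 CPM with ACs. Control SjSs samples thus overlapped with AC treated B6 samples in Slfn1, and only the AC treated SjSs samples stood far above. The log2 fold change was 1.84 ± 0.41 (SE here and below, adjusted p = 0.00132 by edgeR) in B6 and 3.37 ± 0.35 (adjusted p = 9.09e-08 by edgeR) in SjSs BMDMs.

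Slfn2, the other short member and the one tied to quiescence, was at 235, 256 and 237 CPM in control B6 and at 634, 702 and 718 CPM in AC treated B6 samples. In SjSs samples it was at 172, 193 and 154 CPM without treatment and at 1584, 1654 and 1535 CPM with ACs. Control SjSs samples were therefore the lowest of all groups in Slfn2, and AC treated SjSs samples the highest. The fold was 2.82 in B6 (log2 1.498 ± 0.080, adjusted p = 6.44e-11 by edgeR) and 9.19 in SjSs BMDMs (log2 3.20 ± 0.09, adjusted p = 5.32e-16 by edgeR).

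Slfn3, an intermediate member, was at 8.23, 9.55 and 7.73 CPM in control B6 and 15.1, 14.3 and 16.05 CPM in AC treated B6 samples. It was at 11.3, 13.4 and 10.9 CPM in control SjSs and 108, 101 and 102 CPM in AC treated SjSs samples. The B6 samples did not overlap but stayed under the fold threshold, at a log2 fold change of 0.84 ± 0.16 (adjusted p = 0.00032 by edgeR), beside 3.13 ± 0.16 in SjSs BMDMs (adjusted p = 2.58e-12 by edgeR).

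Slfn4, the intermediate member known from myeloid cells, was at 1.67, 3.61 and 3.80 CPM in control B6 and at 2.54, 5.68 and 5.86 CPM in AC treated B6 samples, and these 2 groups overlapped. In SjSs samples it was at 11.6, 10.8 and 9.30 CPM without treatment and at 134, 104 and 128 CPM with ACs, with no overlap. The log2 fold change was 0.65 ± 0.40 in B6 (adjusted p = 0.226 by edgeR) and 3.53 ± 0.34 in SjSs BMDMs (adjusted p = 3.01e-08 by edgeR), the latter an 11.5-fold increase. With a replicate block within each strain the adjusted p in B6 was 0.0185 by edgeR, at a log2 fold change of 0.63. In both Slfn1 and Slfn4, replicate 1 was the lowest of the 3 B6 samples without treatment, with ACs and with CpG, which was noticed after the values were seen.

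Slfn5, a long member with the ISRE shown above, was at 154, 168 and 163 CPM in control B6 and at 302, 321 and 340 CPM in AC treated B6 samples. In SjSs samples it was at 185, 197 and 160 CPM without treatment and at 1724, 1577 and 1739 CPM with ACs. Control samples of both strains overlapped, while with ACs the strains were far apart. The fold was 1.98 in B6 (log2 0.99 ± 0.13, adjusted p = 9.28e-06 by edgeR) and 9.30 in SjSs BMDMs (log2 3.22 ± 0.14, adjusted p = 4.33e-13 by edgeR).

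Slfn8, also long, was at 45.9, 51.4 and 51.4 CPM in control B6 and at 104, 106 and 117 CPM in AC treated B6 samples. In SjSs samples it was at 73.4, 77.9 and 67.4 CPM without treatment and at 849, 813 and 848 CPM with ACs. All 4 groups were apart from each other. The fold was 2.20 in B6 (log2 1.13 ± 0.13, adjusted p = 1.06e-06 by edgeR) and 11.5 in SjSs BMDMs (log2 3.52 ± 0.14, adjusted p = 6.85e-14 by edgeR).

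Slfn9, the close relative of Slfn8, was at 27.6, 28.7 and 17.9 CPM in control B6 and at 31.4, 24.2 and 27.9 CPM in AC treated B6 samples, and these overlapped. In SjSs samples it was at 28.3, 24.9 and 29.3 CPM without treatment and at 260, 232 and 252 CPM with ACs. Of the 6 groups, only AC treated SjSs samples stood apart in Slfn9. The log2 fold change was 0.17 ± 0.17 in B6 (adjusted p = 0.478 by edgeR) and 3.17 ± 0.18 in SjSs BMDMs (adjusted p = 1.47e-11 by edgeR). Summed with Slfn8, whose counts are larger, the pair gave 0.88 ± 0.13 in B6 and 3.43 ± 0.14 in SjSs BMDMs.

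**Figure D3:**
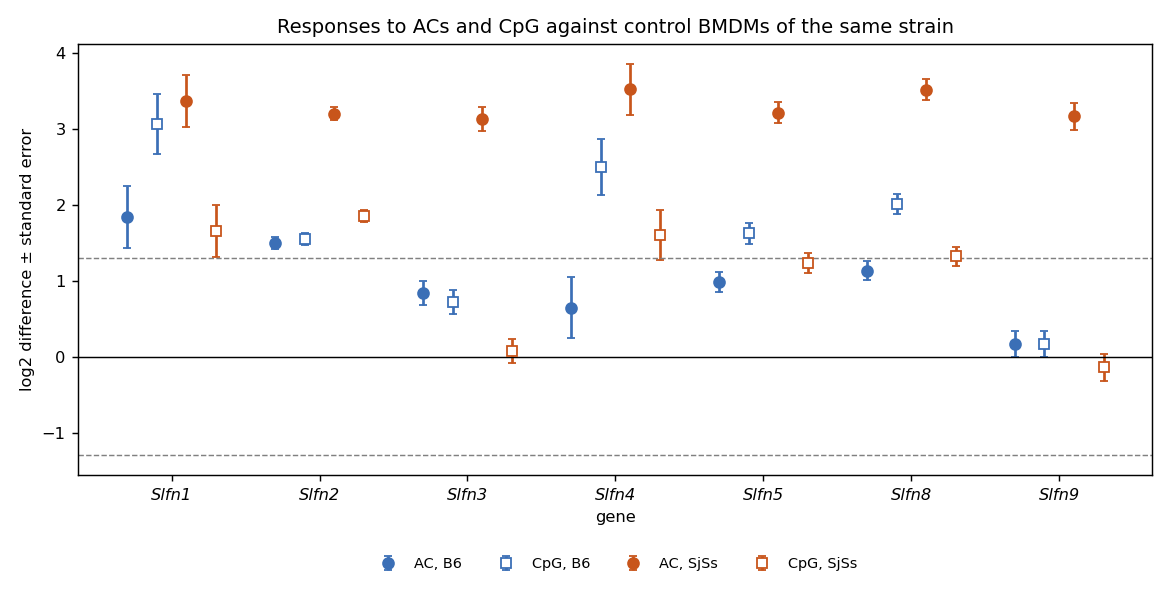
Log2 fold change ± SE of each member for ACs (filled circles) and CpG (open squares) against control BMDMs of the same strain, B6 in blue and SjSs in orange, with dashed lines at the fold threshold of 1.3. The AC response in SjSs lies between 3.13 and 3.53 for all 7 members, and Slfn3 and Slfn9 have the lowest CpG responses in both strains.

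The difference between the strains in their AC response was tested directly, as an interaction of strain and AC. All 7 members were called with a larger increase in SjSs BMDMs, where 4.76% of genes were, and the median was 2.30 on the log2 scale beside -0.0059 over all genes. Slfn9 had the largest difference at 3.00 ± 0.24 (adjusted p = 1.50e-08 by edgeR), followed by Slfn4 at 2.88 ± 0.52, Slfn8 at 2.39 ± 0.18, Slfn3 at 2.30 ± 0.22 and Slfn5 at 2.23 ± 0.19. The short members had the smallest, 1.70 ± 0.11 in Slfn2 and 1.52 ± 0.54 in Slfn1. Differences between members were not tested. Slfn1 was the weakest of these calls (adjusted p = 0.0313 by edgeR). It was lost in 6 of the 12 fits that left out 1 sample, namely without replicate 2 or 3 of either control group or replicate 1 of either AC group, with an adjusted p of up to 0.0901.

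Slfn10-ps had smaller values than the members in the AC treated SjSs comparison. With ACs its log2 fold change was 1.15 ± 0.11 in B6 (adjusted p = 1.15e-07 by edgeR, under the fold threshold) and 1.52 ± 0.11 in SjSs BMDMs (adjusted p = 6.18e-10 by edgeR, called higher). Its interaction of strain and AC was 0.38 ± 0.15 (adjusted p = 0.0626 by edgeR) and was not called. The pseudogene also shared 7.84% of its 100-base windows with other Schlafen transcripts, more than any member. Slfn14, Slfnl1 and Slfn5os were searched for by name and were not among the 20615 genes.

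With ACs, SjSs BMDMs had higher levels than B6 BMDMs in 6 of 7 members by the call, where 6.24% of genes were higher, and in all 7 by the adjusted p alone, where 24% were. These differences share samples with the responses above. Slfn4 differed most, by 26.0-fold (log2 4.70 ± 0.36, adjusted p = 3.05e-09 by edgeR), followed by Slfn1 at 10.7-fold (log2 3.42 ± 0.35) and Slfn9 at 8.91-fold (log2 3.16 ± 0.18). Slfn8 was 7.69-fold, Slfn3 6.84-fold and Slfn5 5.23-fold higher. Slfn2 was 2.32-fold higher (log2 1.22 ± 0.08, adjusted p = 2.60e-10 by edgeR) and stayed under the fold threshold.

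Without treatment, 2 of 7 members were called higher in SjSs BMDMs, where 1.3% of genes were. Slfn1 was 3.72-fold higher (log2 1.90 ± 0.41, adjusted p = 0.0030 by edgeR) and Slfn4 3.54-fold higher (log2 1.82 ± 0.38, adjusted p = 0.00224 by edgeR). The control samples of the strains did not overlap in 5 of 7 members, Slfn1 and Slfn4 among them, and in 34.4% of all genes. By the adjusted p alone 4 of 7 were higher and 1 lower, where 9.04% and 10.6% of genes were. Slfn2 went the other way, with a log2 difference of -0.49 ± 0.08 (adjusted p = 0.000265 by edgeR), under the fold threshold. Slfn8 was higher by 0.56 ± 0.13 on the log2 scale (adjusted p = 0.00493 by edgeR), also under it. Slfn3 differed by 0.48 ± 0.16 (adjusted p = 0.0429 by edgeR), and that p rose above 0.05 in 5 of the 6 fits that left out 1 sample, up to 0.150, all but the one without B6 control replicate 2, and was 0.0513 with the replicate number as a block. Slfn5 and Slfn9 differed by 0.16 each, with adjusted p of 0.443 and 0.576 by edgeR.

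**Figure D4:**
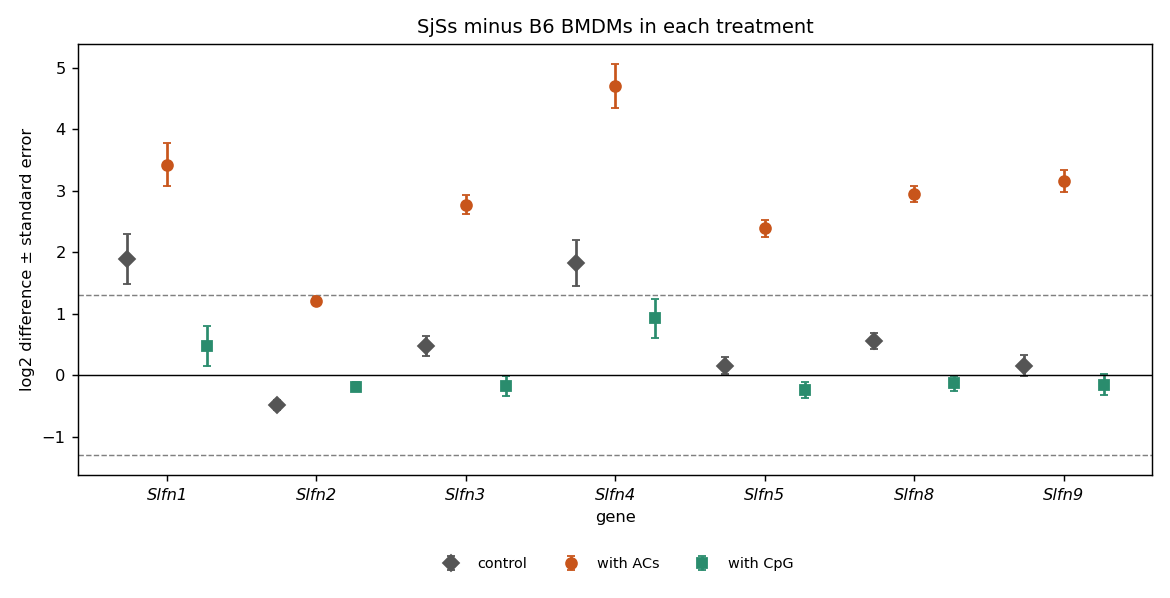
Log2 difference ± SE between SjSs and B6 BMDMs for each member, without treatment (grey diamonds), with ACs (orange circles) and with CpG (green squares), with dashed lines at the fold threshold of 1.3. With ACs the differences run from 1.22 in Slfn2 to 4.70 in Slfn4, and with CpG from -0.23 to 0.93 with none past the threshold.

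CpG raised most but not all members. In B6 BMDMs 5 of 7 were called higher, where 5.86% of genes were, and in SjSs BMDMs 4 of 7 were, where 4.81% were. By the adjusted p alone it was 6 in B6 and 5 in SjSs BMDMs, where 28.1% and 27.8% of genes were higher. In B6 BMDMs the log2 fold changes were 3.07 ± 0.39 in Slfn1, 2.50 ± 0.37 in Slfn4, 2.01 ± 0.13 in Slfn8, 1.63 ± 0.14 in Slfn5 and 1.55 ± 0.08 in Slfn2. In SjSs BMDMs they were 1.66 ± 0.34 in Slfn1, 1.61 ± 0.33 in Slfn4, 1.85 ± 0.08 in Slfn2 and 1.32 ± 0.13 in Slfn8. Slfn5 had a log2 fold change of 1.23 ± 0.13 in SjSs BMDMs (adjusted p = 2.42e-07 by edgeR), just under the fold threshold that Slfn8 just passed. The call of Slfn8 was lost without SjSs control replicate 3 (1.27), SjSs CpG replicate 1 (1.25) or SjSs CpG replicate 3 (1.20). Slfn5 was called without SjSs CpG replicate 2 (1.42).

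Slfn3 and Slfn9 were not called with CpG in either strain. Slfn3 was at 10.5, 16.5 and 15.3 CPM in CpG treated B6 samples and 13.4, 8.99 and 14.9 CPM in CpG treated SjSs samples, with log2 fold changes of 0.73 ± 0.16 (adjusted p = 0.000646 by edgeR) and 0.076 ± 0.16 (adjusted p = 0.717 by edgeR). Slfn9 was at 26.5, 30.0 and 26.9 CPM in B6 and 26.8, 17.0 and 31.2 CPM in SjSs samples, and both groups overlapped with their controls. Its log2 fold change was 0.17 ± 0.17 in B6 (adjusted p = 0.419 by edgeR) and -0.14 ± 0.17 in SjSs BMDMs (adjusted p = 0.532 by edgeR). The direction of Slfn9 turned to -0.017 in B6 without control replicate 3 and to 0.073 in SjSs without CpG replicate 2. Slfn8, by contrast, was at 171, 230 and 198 CPM in CpG treated B6 samples and 200, 135 and 212 CPM in CpG treated SjSs samples. Slfn8 and Slfn9 thus had like upstream letters, each with the ISRE, and values with CpG of 2.01 and 0.17 in B6 BMDMs, a gap that was not tested between the genes. Summed, the pair gave 1.62 ± 0.13 with CpG in B6 and 1.05 ± 0.13 in SjSs BMDMs.

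Slfn4 and Slfn1 were uneven among the 3 CpG samples of a group. Slfn4 was at 8.79, 22.7 and 19.6 CPM in CpG treated B6 and at 35.9, 19.2 and 41.3 CPM in CpG treated SjSs samples. Slfn1 was at 7.72, 20.9 and 17.5 CPM and at 23.9, 10.4 and 29.5 CPM in the same samples. CpG treated B6 replicate 1 and CpG treated SjSs replicate 2 were the lowest of their groups in both genes, and also in the summed interferon-stimulated genes described below, at 3071 CPM beside 4870 and 3974, and at 2513 CPM beside 3617 and 4267. Their part in the result was not tested.

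With CpG, 0 of 7 members were called between the strains by edgeR, where 1.82% of genes were called higher and 0.792% lower, and the count was also 0 with DESeq2. At an unadjusted p under 0.05 there were 2, Slfn4 and Slfn2, where 32.1% of genes were. Slfn4 was higher in SjSs BMDMs by 0.93 ± 0.32 on the log2 scale (adjusted p = 0.0459 by edgeR, 10.2% of genes passing it in this direction), which was 0.114 with DESeq2's Wald test and 0.0964 in edgeR's fit of these groups alone, and was over 0.05 in 4 of the 6 fits that left out 1 sample, up to 0.187 without B6 CpG replicate 1. Slfn2 differed by -0.18 ± 0.08 (adjusted p = 0.113 by edgeR). For the interaction of strain and CpG 0 members were called by edgeR and by DESeq2, where 0.285% of genes were called higher and 0.329% lower, while 5 of 7 had an unadjusted p under 0.05, as 20.1% of genes did. Slfn8 had an interaction of -0.69 ± 0.18 on the log2 scale (adjusted p = 0.0286 by edgeR, 2.62% of genes passing it in this direction), under the fold threshold, and this p was over 0.05 in 3 of the 12 fits that left out 1 sample, without replicate 1 of B6 control, replicate 2 of SjSs control or replicate 2 of B6 CpG, and was 0.0798 in edgeR's fit of the compared groups alone. Slfn1 had an interaction of -1.42 ± 0.52 (adjusted p = 0.124 by edgeR), which was -1.75 and called without B6 CpG replicate 1 (adjusted p = 0.0289 by edgeR). With a replicate block within each strain Slfn1 was called as well, at -1.39 (adjusted p = 0.0131 by edgeR).

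The Schlafen response was set beside 27 other interferon-stimulated genes, all of which passed the filter. With ACs 18 of them were called higher in B6 and 26 in SjSs BMDMs, where 2.43% and 7.09% of all genes were. With CpG 25 were in B6 and 17 in SjSs BMDMs, where 5.86% and 4.81% of all genes were. None of the 27 was called lower in these comparisons. Of all genes, 2.04% and 5.83% were called lower with ACs and 6.88% and 4.45% with CpG, in B6 and SjSs BMDMs. Their median log2 fold changes were 1.84 and 3.50 with ACs and 2.39 and 1.49 with CpG, in B6 and SjSs BMDMs, beside 0.99, 3.22, 1.63 and 1.32 for the Schlafen members. The interaction of strain and AC was called higher in 19 of the 27, where 4.76% of all genes were, with a median of 2.22, beside 2.30 for the members. For the interaction with CpG, 8 of the 27 and 0 of the 7 members were called lower in SjSs BMDMs, where 0.329% of all genes were. Among the 8 were Usp18 at -2.07 and Cxcl10 at -2.03. The genes of the list reached far larger increases than the members in AC treated SjSs BMDMs, such as Cxcl10, a chemokine, at a log2 fold change of 10.99 ± 0.31 and Rsad2, an antiviral enzyme, at 7.98 ± 0.31. Its smallest were Bst2 at 0.83, which was not called, and the antiviral RNA sensors Oas3 at 1.68 and Oas2 at 1.79. The list summed to 52954 to 54384 CPM in AC treated SjSs samples and to 3665 to 4034 CPM in AC treated B6 samples. Control samples had 772 to 853 CPM in B6 and 1192 to 1458 CPM in SjSs BMDMs, with no overlap. Oasl1 (1.78) and Usp18 (1.54) were the 2 of 27 called higher in SjSs controls, where 1.3% of all genes were.

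Among 14 components of interferon signaling, 7 were called higher with ACs in SjSs and 2 in B6 BMDMs, where 7.09% and 2.43% of all genes were. None of the 14 was called lower, where 5.83% of all genes were in SjSs and 2.04% in B6 BMDMs. Ifnb1, the gene of interferon beta, had 5, 15, 26 and 694 counts over the 3 samples of control B6, control SjSs, AC treated B6 and AC treated SjSs BMDMs, and 8 and 14 with CpG in B6 and SjSs. Its log2 fold change with ACs was 5.61 ± 0.52 in SjSs BMDMs (adjusted p = 2.33e-08 by edgeR), and its interaction of strain and AC was 3.17 ± 1.3 (adjusted p = 0.0640 by edgeR), which did not pass. Socs1, a feedback inhibitor of the JAK kinases, rose by 7.31 ± 0.18 and Irf1, a transcription factor, by 4.12 ± 0.11 on the log2 scale in AC treated SjSs BMDMs. Stat2 rose by 2.78, Jak2 by 2.50 and Irf9 by 1.39. The receptor genes Ifnar1 and Ifnar2 had log2 fold changes of -0.029 and 0.20 and were not called.

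The genes most like each member were taken by Pearson's correlation of log2 CPM over the 18 samples, which form 6 groups of replicates, so r mostly follows the group means. Slfn5 and Slfn8 had the same nearest gene, Igtp, a GTPase induced by interferon, at r = 0.996 and r = 0.997. The next for Slfn5 were Tdrd7 and Znfx1, and for Slfn8 Parp9 and Stat2. For Slfn1 they were Oas2 (r = 0.983), Oas3 and Sp100, and for Slfn4 Tmcc3 (r = 0.965), Sp100 and Tcirg1. Slfn2 was nearest to Plekho2 (r = 0.993), Gch1 and Rab20, Slfn3 to Gm5431 (r = 0.991), Trim30c and Mxd1, and Slfn9 to Nono (r = 0.992), Rbm43 and Fndc3a. Within the family the pairs most alike were Slfn5 and Slfn8 (r = 0.994), Slfn3 and Slfn9 (r = 0.975) and Slfn1 and Slfn4 (r = 0.967), while Slfn2 and Slfn9 were least alike (r = 0.674). The 2 pairs with near-identical coding sequences, Slfn8 with Slfn9 and Slfn3 with Slfn4, had r of 0.846 and 0.803.

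Within 500 kb of the cluster, 23 of 29 other genes passed the filter. With ACs none of the 23 was called lower, where 5.83% of all genes were in SjSs and 2.04% in B6 BMDMs. Called higher were 6 in SjSs and 5 in B6 BMDMs, where 7.09% and 2.43% of all genes were. In SjSs BMDMs they were the chemokine genes Ccl5 (log2 fold change 7.20), Ccl4 (5.82), Ccl3 (4.54) and Ccl9 (2.02), Mmp28 (2.60), a matrix metalloproteinase, and Heatr9, which had 0 counts in both control groups, 136 in AC treated SjSs and 18 in AC treated B6 BMDMs. With CpG 7 of the 23 were called higher in B6 and 4 in SjSs BMDMs, where 5.86% and 4.81% of all genes were. The interaction of strain and AC was called for Ccl5 (3.79), Ccl4 (3.37), Ccl3 (3.10) and Wfdc17 (1.41), and for the strain difference with ACs Ccl6 (1.37) was called besides the 3 chemokine genes, Heatr9 and Mmp28. The gene 1700020L24Rik was called with CpG in B6 BMDMs alone among the 9 comparisons, at 1.55. No neighbour was called lower in any comparison, where from 0.329% to 6.88% of all genes were.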

How the data were processed

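RNA of 18 BMDM samples was sequenced, and the authors aligned reads to mm10 with STAR and quantified genes with Partek's E/M tool. The values they deposited were estimated counts per gene, not normalized, of which 41.1% were not whole (tolerance 1e-06), and they were rounded to whole numbers. Samples were grouped by their labels. In R 4.3.3, edgeR 4.0.16 kept genes by filterByExpr, scaled totals by TMM and fitted 1 mean for each of the 6 groups to all 18 samples by quasi-likelihood. The Benjamini-Hochberg adjustment was made within each of 9 comparisons, and the SE was the log2 fold change divided by the square root of F. Residual degrees of freedom were 12. DESeq2 1.42.0, which the submitters' notes also list (3.13), was an alternative, as were its size factors, no filter, a filter of 10 counts in 3 samples, other fold thresholds, fits of the compared groups alone, replicate blocks, summed pairs of similar genes and each sample left out in turn. Coding and upstream sequences were aligned with MAFFT 7.526, and figures were drawn with Python 3.11.15 and matplotlib 3.10.9. Upstream sequences are RefSeq's, on GRCm38.p6, and coding sequences and exon lengths are from GENCODE M21.

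Named are every member in every comparison, the other Schlafen genes searched for by name, and neighbours within 500 kb that were called. Also named are members of the fixed lists and the 3 genes most correlated with each member (log2 CPM, prior count 2). The members and lists were chosen with earlier results of these data known. On simulated counts with a log2 change of 2 in 200 genes, 200 were recovered (100%) with 2 false calls among 15373 genes for the AC response in SjSs, and 197 (98.5%) with 3 for the interaction of strain and AC. The simulation was simpler than the data. Only well-counted genes were changed, all other genes had the same mean in every group, and samples were independent. In the data 2040 genes were called for the AC response in SjSs, and treatments may share mice.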

Additional observations from a re-analysis of the deposited data

Results flagged for a closer look

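The response to ACs differed between the strains in every Schlafen member by edgeR's test of the interaction of strain and AC. The increase was larger in SjSs BMDMs and was called in all 7, where 4.76% of all genes were called higher. The differences on the log2 scale were 1.52 in Slfn1, 1.70 in Slfn2, 2.30 in Slfn3, 2.88 in Slfn4, 2.23 in Slfn5, 2.39 in Slfn8 and 3.00 in Slfn9. The largest adjusted p by edgeR was 0.0313, in Slfn1, and the next was 0.000226, in Slfn4. The call of Slfn1 was lost in 6 of the 12 fits that left out 1 sample. The response of Slfn8 to CpG also differed between the strains, by -0.69 on the log2 scale (adjusted p = 0.0286 by edgeR), which was the opposite direction.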

How the results depend on the processing

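All 63 log2 fold changes of the members kept their direction, none gained or lost a call by both thresholds together, and all 9 counts of called members were the same, under the Wald test and the size factors of DESeq2, no filter, a filter of 10 counts in 3 samples, fits of the compared groups alone, and the replicate number as a block. The adjusted p alone crossed 0.05 in these fits for Slfn4 in the strain difference with CpG (0.114 with DESeq2, 0.0964 with the compared groups alone), Slfn3 (0.0268 with DESeq2) and Slfn8 (0.0798 with the compared groups alone) in the interaction of strain and CpG, and Slfn3 in the strain difference without treatment (0.0513 with the replicate block). The replicate numbers were not taken as pairs in the main fits, since no source ties a number to a mouse. Samples of a strain with the same number in different treatments had correlations of 0.0198 to 0.264, and 9 of 18 were over 0.1. For different numbers the correlations were -0.252 to 0.0745, and 16 of 18 were most alike with their own number. The main fits may therefore leave out a pairing. With a replicate block within each strain, the count for the interaction of strain and CpG was 1 in place of 0, Slfn1 at -1.39 (adjusted p = 0.0131 by edgeR), and the other 41 of the 42 member values kept their call. The adjusted p alone then passed for Slfn4 in the AC response in B6 (0.0185) and in the interaction of strain and CpG (0.0252). No fold threshold and a fold change over 1.3 gave the same counts of members called. These were 5 for the AC response in B6, and 6 and 5 for the CpG response in B6 and SjSs. With no fold threshold 38.3%, 57.9% and 54.2% of all genes were called in these, in either direction. The strain difference had 5 members without treatment (4 higher and 1 lower), 7 with ACs and 1 with CpG, where 19.6%, 49.4% and 19.7% of genes were. For the interaction of strain and CpG it was 1, where 5.85% of genes were. The shares of all genes were not counted for a fold change over 1.3. With single samples left out, the count for the interaction of strain and CpG ranged from 0 to 1.

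With similar pairs summed, the direction was that of the more abundant partner. The pairs were Slfn8 with Slfn9, Slfn3 with Slfn4, and the short members Slfn1 and Slfn2, which were identical at only 68.6% of coding bases. Slfn9 with Slfn8 had 1.05 for the CpG response in SjSs, Slfn3 with Slfn4 0.52 for the strain difference with CpG, and Slfn1 with Slfn2 -0.44 without treatment, -0.17 with CpG and 0.28 for the interaction of strain and CpG. With a sample left out, Slfn9 ranged from -0.015 to 0.29 in the AC response in B6, from -0.017 to 0.29 in the CpG response in B6, from -0.33 to 0.073 in the CpG response in SjSs, from -0.028 to 0.28 in the strain difference without treatment and from -0.34 to 0.061 in that with CpG. Slfn3 ranged from -0.077 to 0.26 in the CpG response in SjSs and from -0.35 to 0.011 in the strain difference with CpG, and Slfn8 from -0.25 to 0.046 in the latter. None of these values was called. The sums also changed calls. For the CpG response in B6, Slfn8 with Slfn9 was called at 1.62 and Slfn3 with Slfn4 at 1.43, though Slfn9 and Slfn3 alone were not. For the CpG response in SjSs neither pair was called, at 1.05 and 0.99, though Slfn8 and Slfn4 alone were. Slfn4 also lost its call without treatment (0.96, with Slfn3). Slfn1 with Slfn2 gave 1.26 for the strain difference with ACs and was not called, beside 1.22 for Slfn2 alone. Slfn1 is a small part of that sum, at 69.9 beside 1591 CPM in AC treated SjSs BMDMs and 6.53 beside 685 CPM in AC treated B6 BMDMs. The sum therefore says little about Slfn1. The causes of the other changes were not tested. By Spearman's correlation or over the 6 group means, the 3 genes most like a member changed for all 7 members. Slfn1 and Slfn4 have the fewest counts, 79 to 100 for Slfn1 in some control B6 samples, and the largest SEs.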
